A study of Drosophila melanogaster with 6 samples.

Results

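Genes of antioxidant defence were followed in second-instar (L2) *Drosophila melanogaster* larvae that lack pyruvate kinase. The set held 8 of the 17869 genes in the count tables and was taken by gene symbol. Its members were the transcription factor gene *cnc*, its inhibitor gene *Keap1*, the glutamate-cysteine ligase genes *Gclc* and *Gclm*, the superoxide dismutase genes *Sod1* and *Sod2*, the catalase gene *Cat* and the thioredoxin reductase gene *Trxr1*. RNA-seq compared 3 libraries of *Pyk* 23/31 mutants with 3 libraries of *Pyk* 23/+ heterozygous controls, all from whole animals. The mutants carried 2 different CRISPR/Cas9 frameshift deletions in the first coding exon of *Pyk*, the gene of the last enzyme of glycolysis, and the controls carried the 23 deletion beside a wild-type copy. The 23 allele was thus common to both genotypes, and no library came from larvae without a *Pyk* mutation. The titles call the mutants knockouts, and the study's general account of larval collection, written for metabolomics, gives a mix of both sexes at the early L2 stage. How many larvae went into an RNA sample is not given in the sources used here.

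Superoxide dismutases turn superoxide into hydrogen peroxide, which catalase, peroxiredoxins and glutathione-dependent enzymes then remove. Glutathione synthesis begins with glutamate-cysteine ligase, made of a catalytic subunit (Gclc) and a modifier subunit (Gclm). Flies have no glutathione reductase, and thioredoxin reductase keeps both the thioredoxin and the glutathione pools reduced, using NADPH. CncC, the long form of the *cnc* product and the fly relative of mammalian Nrf2, binds antioxidant response elements together with a small Maf protein. Keap1 holds CncC back and marks it for degradation with a cullin 3 ubiquitin ligase until oxidants or electrophiles release it.

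Values rest on 12499172 to 16029304 read pairs assigned to genes in the mutant libraries and 11249487 to 11784491 in the control libraries, on the strand that fits the kit. Levels are in CPM, a gene's share of the library's assigned pairs scaled to a common library size with TMM factors. Before TMM scaling, a count of 3 corresponds to 0.187 to 0.240 CPM in the mutants and 0.255 to 0.267 CPM in the controls. *Pyk* itself matched the labels, with 53.7, 44.0 and 57.7 CPM in the mutants against 465, 442 and 419 CPM in the controls. Replicate 3 stood apart in both genotypes. Across genes, the chi-square per degree of freedom was 26.7 and 31.2 between mutant replicate 3 and the other mutants and 19.1 between mutant replicates 1 and 2, against 16.2 for each pair with control replicate 3 and 3.63 between control replicates 1 and 2. Marker lists of 6 tissues were summed, and no marker had 0 counts throughout, though *Fbp2* of the fat body list had too few to be tested. Summed marker levels of the Malpighian tubule (1638 to 1913 CPM in mutants, 1178 to 1273 CPM in controls), the midgut (1491 to 1898 and 1135 to 1449 CPM) and the nervous system (372 to 438 and 286 to 330 CPM) were above the controls in every mutant. Those of fat body (7913 to 9729 CPM in mutants, 10177 to 11778 CPM in controls) and muscle (45256 to 50876 and 51178 to 52913 CPM) were below, and the hemocyte sums overlapped (163 to 188 and 171 to 181 CPM). Abundant genes weighed most in these sums. The fat body gene *apolpp* had means of 5160 CPM in mutants and 6903 CPM in controls, and the tubule gene *Fst* 1271 and 842 CPM. Some markers went against their sum, as *bmm* (log2 fold change of mutants over controls 1.46) and *Lsd-2* (0.26) of fat body and *repo* (-1.57) of the nervous system did. Of 6 markers each, 4 tubule, 3 midgut, 4 nervous system, 2 fat body, 0 muscle and 1 hemocyte genes were higher and 1, 0, 1, 2, 3 and 1 were lower by the test described next, with the same 0 muscle and 0 midgut counts at an unadjusted p of 0.05 or under DESeq2 and limma-voom. By that test, 22.2% of all tested genes were higher and 26.0% lower. In whole larvae, fewer cells of a type and less RNA per cell cannot be told apart, and the part of tissue make-up in the results that follow was not tested.

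The comparison asks how larval gene expression changes without pyruvate kinase, here for the antioxidant genes. *Gclc*, *Keap1*, *cnc* and *Cat* rose in the mutants, *Sod1*, *Gclm* and *Trxr1* fell, and *Sod2* did not pass the test. The genotypes were compared by edgeR's quasi-likelihood test over 11422 genes with at least 12 counts in all, and a gene passed when its Benjamini-Hochberg adjusted p was 0.05 or less. Thus 7 of the 8 genes passed, where 48.2% of all tested genes did. Of the 8, 4 were higher, against 22.2% of all tested genes, and 3 were lower, against 26.0%. None of the 8 reached the 2-fold change that 7.50% of tested genes passed with (5.25% higher, 2.25% lower), nor did any at an unadjusted p of 0.05, under DESeq2 or under limma-voom. The genotypes did not overlap in 7 of the 8 genes, against 60.9% of all tested genes. The median log2 fold change was 0.11 over the 8 genes and 0.015 over all tested genes, and only *Gclc*, *Keap1* and *Sod1* lay beyond the median absolute log2 fold change of all tested genes, 0.38.

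**Figure D1:**
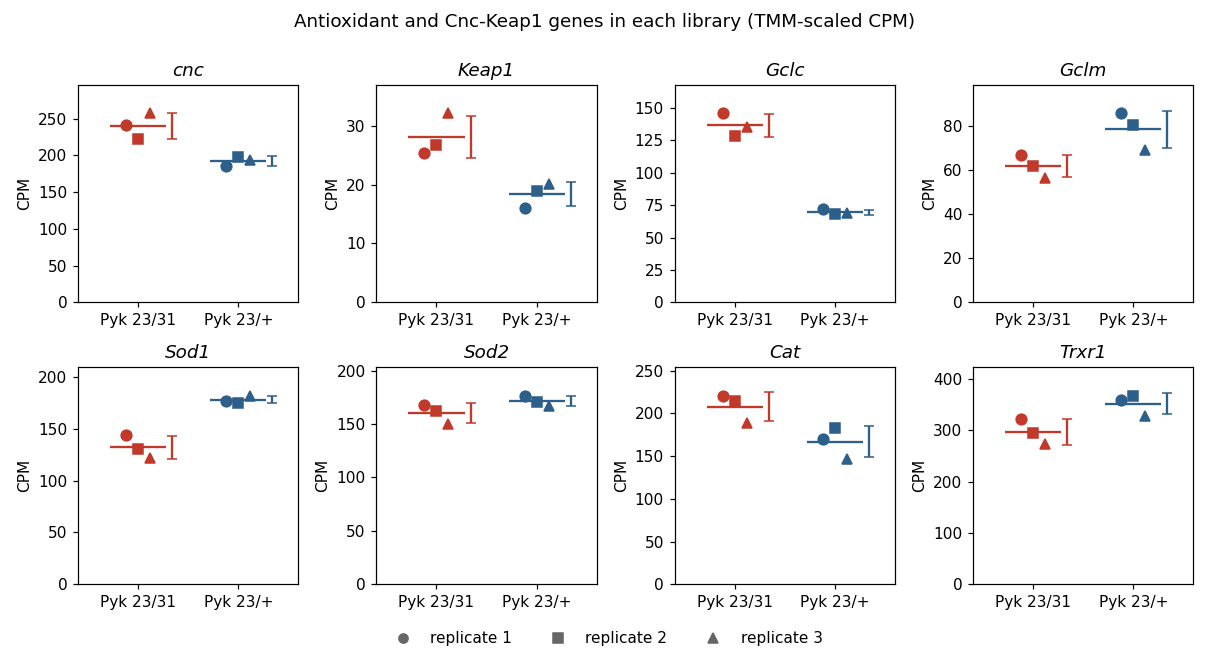
Level of each of the 8 genes (CPM, TMM-scaled, axes from 0) in the 3 *Pyk* 23/31 libraries (red, left) and the 3 *Pyk* 23/+ libraries (blue, right); marker shapes are replicates, horizontal lines are means and the bars beside them are ± 1 SD (n = 3). *Gclc* shows the widest gap, with 129 to 146 CPM in mutants and 68.0 to 71.8 CPM in controls, while the genotypes touch in *Sod2*.

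The Cnc-Keap1 pair rose together. *cnc* (FBgn0262975, BDGP6 3R from 23185580 to 23226711, minus strand) had 241, 222 and 257 CPM in the mutants, against 185, 198 and 194 CPM in the controls. Every mutant was above every control, with a log2 fold change of 0.32 (SE 0.070, edgeR adjusted p = 0.0044), or 1.25-fold. The annotation lists 16 transcripts with 7 different coding forms for this gene, and the counts are for the gene as a whole, so CncC could not be separated from the shorter forms. *cnc* also holds *fzo* on the same strand in its introns, which had at most 5 counts in a library and shares no exon base with it.

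*Keap1* (FBgn0038475, 3R from 17073942 to 17079945, minus strand), the adaptor that binds CncC, had 25.4, 26.8 and 32.1 CPM in the mutants and 16.1, 18.9 and 20.1 CPM in the controls. It was the least counted of the 8 genes, with 344 to 452 pairs in a mutant library and 182 to 221 in a control library, and the genotypes did not overlap. Its log2 fold change was 0.61 (SE 0.11, edgeR adjusted p = 0.0018), or 1.53-fold. The ratio of *cnc* to *Keap1* counts within a library was lower in the mutants, with 9.49, 8.27 and 8.002, against 11.5, 10.5 and 9.66 in the controls. The difference of the log2 ratios was -0.30, and an exact two-sided permutation test gave p = 0.1, the smallest that 3 against 3 libraries allow. The highest mutant ratio, 9.49, lay close to the lowest control ratio, 9.66.

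The subunits of glutamate-cysteine ligase moved in opposite directions. *Gclc* (FBgn0040319, X from 8102181 to 8116147, minus strand), the catalytic subunit, had 146, 129 and 135 CPM in the mutants and 71.8, 68.0 and 68.9 CPM in the controls. The lowest mutant was far above the highest control, and the log2 fold change was 0.97 (SE 0.070, edgeR adjusted p = 1.8e-05), or 1.96-fold. With libraries scaled by their totals only, or without mutant replicate 2, the log2 fold change was 1.03 and 1.02, past the 2-fold line. On a log2 scale where the other controls average 0 and mutant replicates 1 and 2 average 1, *Gclc* in control replicate 3 lay at -0.020.

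*Gclm* (FBgn0046114, 3R from 22685006 to 22686510, minus strand), the modifier subunit, had 66.7, 62.0 and 56.6 CPM in the mutants and 85.7, 80.3 and 69.3 CPM in the controls. It was lower in every mutant than in any control, with a log2 fold change of -0.34 (SE 0.095, edgeR adjusted p = 0.013). Control replicate 3 held the lowest control value, at 0.71 on that scale, and without control replicate 1 the log2 fold change was -0.28 and no longer passed (adjusted p = 0.056, over alternatives from 0.0022 to 0.056).

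Within each library, *Gclc* counts were 2.19, 2.07 and 2.39 times those of *Gclm* in the mutants and 0.838, 0.846 and 0.995 times in the controls. The difference of the log2 ratios was 1.31, or 2.49-fold (exact two-sided permutation test, p = 0.1, the smallest possible), and such a ratio does not depend on how libraries are scaled. Per kilobase of exon, where *Gclc* is the longer gene, *Gclm* was still the more abundant subunit transcript, with a mean of 1.32 times the *Gclc* level in the mutants and 3.30 times in the controls.

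**Figure D2:**
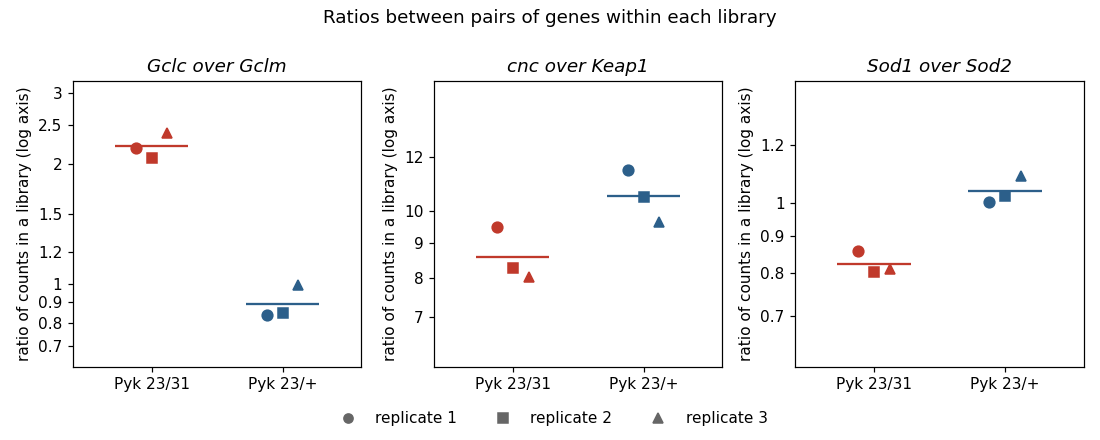
Ratio of the counts of 2 genes within each library (log axis, ticks as ratios) in *Pyk* 23/31 (red, left) and *Pyk* 23/+ libraries (blue, right); shapes are replicates and lines are geometric means. *Gclc* over *Gclm* lies at 2.07 to 2.39 in mutants and 0.838 to 0.995 in controls, and no pair of genes has overlapping genotypes.

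Of the superoxide dismutases, the cytosolic one fell. *Sod1* (FBgn0003462, 3L from 11112281 to 11113740, minus strand), the copper-zinc enzyme, had 144, 131 and 122 CPM in the mutants and 177, 175 and 182 CPM in the controls. The controls lay within a narrow band above all mutants, and the log2 fold change was -0.43 (SE 0.073, edgeR adjusted p = 0.0011), or 25.7% less transcript by the fitted fold change (a percent change of -25.7). *Sod2* (FBgn0010213, 2R from 16772785 to 16773915, minus strand), the mitochondrial manganese enzyme, had 168, 162 and 150 CPM in the mutants and 177, 171 and 167 CPM in the controls, so that the genotypes overlapped. Its log2 fold change of -0.098 (SE 0.066) did not pass (edgeR adjusted p = 0.24, over alternatives from 0.16 to 0.62). The *Sod1* to *Sod2* ratio was 0.858, 0.804 and 0.811 in the mutants and 1.00, 1.02 and 1.09 in the controls, a difference of -0.33 on the log2 scale (exact two-sided permutation test, p = 0.1, the smallest possible). With 3 ratios tested, each Benjamini-Hochberg adjusted p was also 0.1. The ratio of *Trxr1* to *Trxr2* could not be formed, since *Trxr2*, the paralog of *Trxr1*, had 0 counts in all 6 libraries.

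*Cat* (FBgn0000261, 3L from 18822604 to 18828188, plus strand), the peroxisomal enzyme that splits hydrogen peroxide, had 221, 214 and 189 CPM in the mutants and 171, 183 and 147 CPM in the controls. The lowest mutant was just above the highest control, and the log2 fold change was 0.32 (SE 0.093, edgeR adjusted p = 0.018). The call was lost in 4 of the 6 fits that left out 1 library. There the log2 fold change was 0.27 without mutant replicate 1 (adjusted p = 0.067), 0.30 without mutant replicate 2 (adjusted p = 0.059), 0.32 without control replicate 1 (adjusted p = 0.054) and 0.22 without control replicate 3 (adjusted p = 0.059). Without replicate 3 of both genotypes it passed, at 0.29 (adjusted p = 0.0052), over alternatives from 0.0040 to 0.067.

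*Trxr1* (FBgn0020653, X from 8242528 to 8248033, plus strand), thioredoxin reductase, was the most counted of the 8 genes, with 323, 295 and 273 CPM in the mutants and 359, 368 and 328 CPM in the controls. The genotypes met closely between mutant replicate 1 and control replicate 3, and the log2 fold change was -0.24 (SE 0.077, edgeR adjusted p = 0.025). This call was also lost in 4 of the 6 fits that left out 1 library, at -0.24 without mutant replicate 2 (adjusted p = 0.064), -0.19 without mutant replicate 3 (adjusted p = 0.063), -0.24 without control replicate 1 (adjusted p = 0.073) and -0.22 without control replicate 2 (adjusted p = 0.088). With library totals only it was -0.19 (adjusted p = 0.066), and the lowest adjusted p over alternatives was 0.010. *Trxr1* overlaps exons of *sni* on the opposite strand over 435 bases, which strand-specific counting keeps apart, and opposite-strand pairs were 0.106% to 0.266% of its counts in the mutants and 0.0738% to 0.166% in the controls. The gene makes cytosolic and mitochondrial forms of the enzyme, which these counts join.

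The level per length put the dismutases first and *Keap1* last in both genotypes. In CPM per kilobase of exon, mutants had means of 180 ± 15.2 for *Sod1*, 158 ± 8.91 for *Sod2*, 104 ± 8.54 for *Cat*, 94.3 ± 7.89 for *Trxr1*, 41.0 ± 3.37 for *Gclm*, 31.0 ± 1.99 for *Gclc*, 26.1 ± 1.92 for *cnc* and 8.15 ± 1.03 for *Keap1* (SD, n = 3). Controls had 242 ± 4.93 for *Sod1*, 169 ± 4.88 for *Sod2*, 112 ± 6.57 for *Trxr1*, 83.8 ± 9.22 for *Cat*, 52.1 ± 5.57 for *Gclm*, 20.9 ± 0.717 for *cnc*, 15.8 ± 0.458 for *Gclc* and 5.32 ± 0.590 for *Keap1* (SD, n = 3). No neighbours in the order overlapped in the controls, while *Cat* and *Trxr1* overlapped in the mutants and *Sod1* and *Sod2* all but touched there, at 166 and 165. *Gclc* stood above *cnc* in the mutants and below it in the controls, and *Cat* above *Trxr1* in the mutants and below it in the controls. With the longest transcript as the length, both crossings were gone, since *Gclc* was then at 0.936 times *cnc* and *Cat* at 0.8001 times *Trxr1* in the mutants. On this scale *Sod1* exceeded 95.3% of tested genes in the mutants and 96.3% in the controls, *Gclc* 79.7% and 66.9%, and *Keap1* 49.1% and 40.6%.

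**Figure D3:**
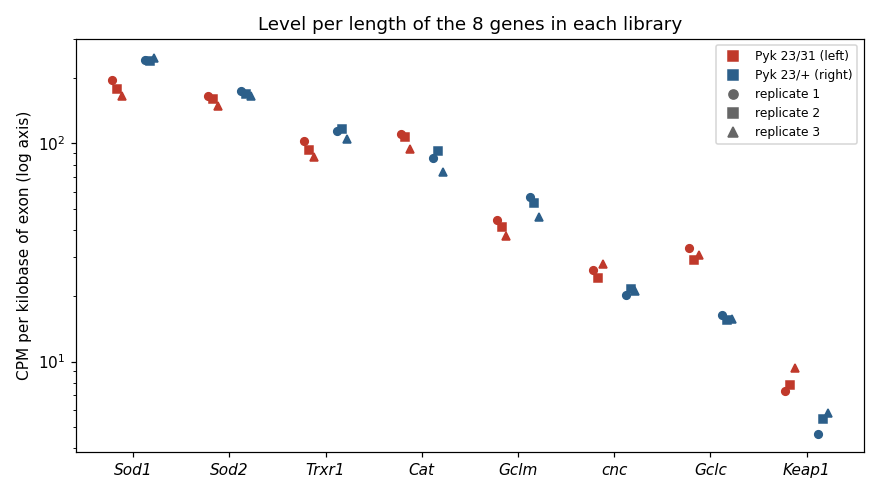
Level of the 8 genes per kilobase of exon (CPM per kilobase, log axis), ordered by the control mean, in *Pyk* 23/31 (red, left of each pair) and *Pyk* 23/+ libraries (blue, right); shapes are replicates. *Gclc* moves past *cnc* in the mutants, at 29.2 to 33.1 against 24.2 to 28.0, and stays below it in the controls, at 15.4 to 16.3 against 20.2 to 21.6; with the longest transcript as length this crossing is absent.

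Replicate 3 of the mutants lay beyond the other mutants, seen from the controls, for *Sod1* (1.48 on the same scale, with controls 1 and 2 at 0 and mutants 1 and 2 at 1), *Gclm* (1.503), *Keap1* (1.52), *cnc* (1.56) and *Trxr1* (1.74). It lay at 0.98 for *Gclc* and at 0.31, nearer to the controls, for *Cat*. Replicate 3 of the controls lay towards the mutants for *Gclm* (0.71), *Trxr1* (0.62) and *Keap1* (0.35), near its own genotype for *cnc* (0.065), and on the far side from the mutants for *Sod1* (-0.14) and *Cat* (-0.89). Without replicate 3 of both genotypes, the same 7 genes passed, at 0.96 for *Gclc*, 0.57 for *Keap1*, 0.29 for *Cat*, 0.26 for *cnc*, -0.25 for *Trxr1*, -0.37 for *Sod1* and -0.38 for *Gclm* (log2 fold change).

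**Figure D4:**
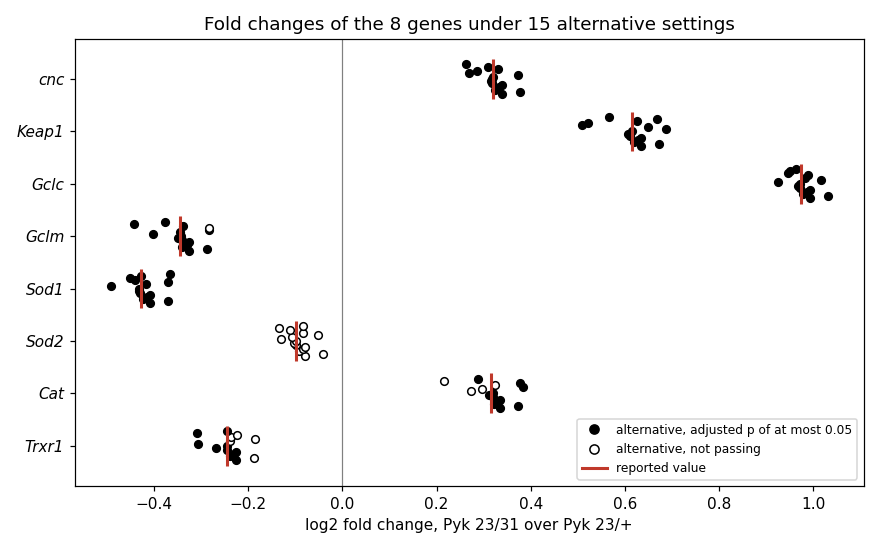
Log2 fold change (*Pyk* 23/31 over *Pyk* 23/+) of the 8 genes under 15 alternative settings (points) and as reported (red line); filled points passed (adjusted p up to 0.05), unlike open points. *Gclc*, *Keap1*, *cnc* and *Sod1* passed under all 15 settings, *Gclm* under 14, *Cat* under 11, *Trxr1* under 10 and *Sod2* under none.

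Around the 8 genes, 43 others of the same defence were grouped in 7 lists by role. Of these, 9 rose, 13 fell, 15 did not pass and 6 had too few counts to be tested, with a median log2 fold change of -0.12 over the 37 tested, and 26 of the 37 did not overlap between genotypes, where 60.9% of all tested genes did not. Lower genes were thus 13 of 37 and higher ones 9 of 37, where all tested genes gave 26.0% and 22.2%. This lean to lower genes depended on tool and scaling. Under DESeq2, 11 list genes were higher and 11 lower, with 2497 and 2379 of all tested genes. With library totals only, 12 were higher and 11 lower, with 2939 and 2525 of all tested genes. All values in the next paragraphs are log2 fold changes of mutants over controls with SE from the edgeR fit.

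Of 6 peroxiredoxin genes tested, 5 fell and *Prx6b* did not pass. Where 26.0% of all tested genes were lower and 22.2% higher, 5 of 12 tested genes of the thioredoxin and peroxiredoxin system were lower and 0 higher. The other 7 did not pass, and the median over the 12 was -0.25. Of the 15 genes in this list, 3 were not tested. None was higher at an unadjusted p of 0.05 or under limma-voom, and 1, *MsrA*, was under DESeq2 (0.31, adjusted p = 0.032) and without control replicate 3 (0.40, adjusted p = 0.015). With library totals only, 2 were higher, *MsrA* (0.35, adjusted p = 0.049) and *SelR* (0.21, adjusted p = 0.029). The lower genes all encode peroxiredoxins, which reduce peroxides with thiols. *Prx4*, the form of the secretory pathway, changed by -0.57 (SE 0.086), cytosolic *Prx2* by -0.47 (SE 0.078), *Prx6a* by -0.34 (SE 0.086), *Prx6c* by -0.30 (SE 0.097) and mitochondrial *Prx3* by -0.30 (SE 0.075). *Prx2* was the most counted of them, with 486, 487 and 436 CPM in the mutants and 688, 680 and 588 CPM in the controls, and the genotypes did not overlap. Under DESeq2, *Prx6a* (-0.33, adjusted p = 0.055) and *Prx6c* (-0.28, adjusted p = 0.075) did not pass and 3 genes were lower. The *Prx6c* call was also lost with library totals only (-0.25, adjusted p = 0.061) and without mutant replicate 1 (-0.32, adjusted p = 0.053) or 2 (-0.23, adjusted p = 0.098) or control replicate 2 (-0.29, adjusted p = 0.071) or 3 (-0.27, adjusted p = 0.059). *Prx6c* and its neighbour *Prx6b* on 2R are related copies whose pairs may be exchanged, and *Prx6b* was at -0.19 (SE 0.18). *Trx2*, the substrate of Trxr1, was at -0.12 (SE 0.068, adjusted p = 0.16), and *Gtpx*, the fly glutathione peroxidase homolog, at 0.025 (SE 0.077, adjusted p = 0.80). *Prx5* was listed at 0 in every library, and all its exon bases are shared with *CG7215* on the same strand, which was at 0 as well.

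Dismutase partners split. *Ccs*, the copper chaperone that loads Sod1, had 9.79, 9.36 and 11.6 CPM in the mutants and 13.7, 15.2 and 17.1 CPM in the controls, and fell by 0.58 (SE 0.12). *Sod3*, the extracellular copper-zinc dismutase, had 62.2, 62.9 and 73.9 CPM in the mutants and 34.9, 37.2 and 44.9 CPM in the controls, and rose by 0.77 (SE 0.11). *Irc*, the immune-regulated catalase, rose by 0.37 (SE 0.066). In all 3 genes every mutant was on the same side of every control, as in 60.9% of all tested genes.

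Genes that supply NADPH were lower or did not pass. Of 5, 3 fell, 0 rose and 2 did not pass, with a median of -0.52, where 26.0% of all tested genes fell and 22.2% rose. *Men* was higher at an unadjusted p of 0.05, at 0.15 (SE 0.065), and passed with library totals only (0.20, adjusted p = 0.022). None was higher under DESeq2 or limma-voom. *Idh*, NADP-dependent isocitrate dehydrogenase, had 552, 567 and 486 CPM in the mutants and 940, 973 and 837 CPM in the controls, and fell by 0.78 (SE 0.080). *Pgd*, 6-phosphogluconate dehydrogenase, fell by 0.52 (SE 0.12). *Zw*, glucose-6-phosphate dehydrogenase, had 62.5, 46.0 and 57.8 CPM in the mutants and 101, 82.4 and 66.4 CPM in the controls, and fell by 0.59 (SE 0.19, adjusted p = 0.046), a call that 9 of 15 alternatives lost. Among these were leaving out mutant replicate 1 (-0.68), 2 (-0.47) or 3 (-0.62) and control replicate 1 (-0.43) or 2 (-0.61), with adjusted p from 0.060 to 0.13.

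Of 8 partners and regulators of Cnc and Keap1, 2 rose, 2 fell and 4 did not pass, near the 22.2% of all tested genes that rose and the 26.0% that fell. The median over the 8 was 0.39, but 0.022 over the 6 with a mean of at least 1 CPM in either genotype, without *Sesn* and *DJ-1alpha*. *ref(2)P*, the fly p62 homolog and an autophagy adaptor, had 143, 143 and 161 CPM in the mutants and 81.4, 78.2 and 77.6 CPM in the controls, and rose by 0.92 (SE 0.071). *Atg8a*, the ubiquitin-like protein of autophagosomes that ref(2)P binds, had 210, 245 and 262 CPM in the mutants and 129, 133 and 130 CPM in the controls, and rose by 0.87 (SE 0.083). The cullin ligase component *Roc1a* fell by 0.28 (SE 0.073) and *dj-1beta*, a redox-sensing DJ-1 homolog, by 0.35 (SE 0.074). The small Maf partner *maf-S* was at 0.17 (SE 0.095, adjusted p = 0.17) and *Cul3* at -0.12 (SE 0.065, adjusted p = 0.14). *Sesn* held 12 counts in all and shares 65.1% of its exon bases with *CG46429* on the same strand, so no level is given.

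The 5 genes chosen for this list, out of those that CncC is known to induce in flies, moved in both directions. Among these 5, 2 rose, 2 fell and 1 did not pass, with a median of 0.36, where 22.2% of all tested genes rose and 26.0% fell. The glutathione S-transferase gene *GstD2* had 117, 105 and 148 CPM in the mutants and 69.9, 62.9 and 58.5 CPM in the controls, and rose by 0.95 (SE 0.13). It lay past 2-fold with library totals only (1.01) and without mutant replicate 2 (1.06) or control replicate 1 (1.02). *GstD1*, of the same gene cluster and the basis of a common CncC reporter, had 835, 768 and 786 CPM in the mutants and 1209, 1194 and 1067 CPM in the controls, and fell by 0.54 (SE 0.067). *GstD7* of that cluster fell by 0.78 (SE 0.12). The cytochrome P450 gene *Cyp6a8* rose by 0.42 (SE 0.14, adjusted p = 0.043), a call lost without mutant replicate 1 (0.48, adjusted p = 0.065), control replicate 1 (0.49, adjusted p = 0.051), 2 (0.33, adjusted p = 0.12) or 3 (0.42, adjusted p = 0.11), without replicate 3 of both genotypes (0.27, adjusted p = 0.081) and without the count filter (0.43, adjusted p = 0.059). *Cyp6a2* was at 0.36 (SE 0.16, adjusted p = 0.10), and passed under DESeq2 (0.38, adjusted p = 0.046), where 3 genes of the list were higher, and without control replicate 1 (0.51, adjusted p = 0.015).

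Both oxidases that make reactive oxygen species rose, where 22.2% of all tested genes did. *Nox*, an NADPH oxidase, had 19.4, 25.7 and 24.5 CPM in the mutants and 10.6, 8.58 and 14.8 CPM in the controls, and rose by 1.03 (SE 0.21, adjusted p = 0.0076), the only gene of the 7 lists that passed the test with a change of at least 2-fold, where 5.25% of tested genes rose that far. It passed but lay under 2-fold without mutant replicate 2 (0.95) or 3 (0.99) or control replicate 1 (0.98) or 2 (0.86), and with unstranded counts (0.99). *Duox*, the dual oxidase of barrier epithelia, rose by 0.52 (SE 0.090). Of the 5 genes of glutathione synthesis and glutaredoxin, only 2 were tested, and 1 rose, where 22.2% of all tested genes did. It was *Ggt-1*, a gamma-glutamyl transpeptidase, which rose by 0.56 (SE 0.15, adjusted p = 0.019). That call was lost without mutant replicate 3 (0.57, adjusted p = 0.062), control replicate 1 (0.45, adjusted p = 0.056) or control replicate 2 (0.50, adjusted p = 0.069). *Grx1*, glutaredoxin, was at -0.12 (SE 0.062, adjusted p = 0.12). The glutathione synthetase genes *Gss1* and *Gss2* held 2 and 0 counts over the 6 libraries. They are neighbouring copies on X with the same exon length of 2838 bases, and pairs with several possible places were left uncounted, so no level is given for this step.

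**Figure D5:**
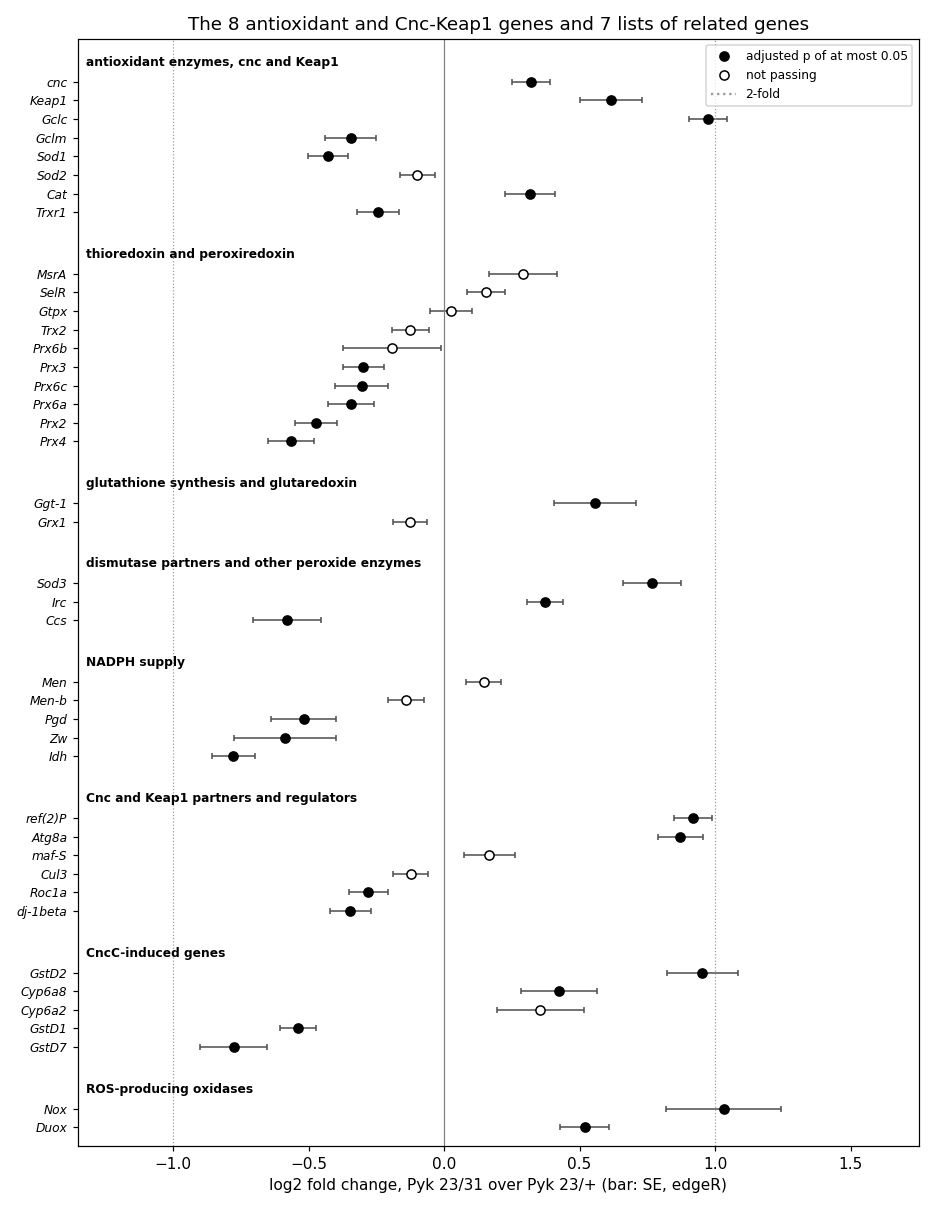
Log2 fold change (*Pyk* 23/31 over *Pyk* 23/+) with SE from the edgeR fit for the 8 genes and for the list genes with a mean of at least 1 CPM in either genotype, grouped by role; filled points passed at an adjusted p of at most 0.05, dotted lines mark 2-fold. Filled points lie left of 0 for 5 peroxiredoxins, 3 NADPH genes, *Ccs*, *Sod1*, *Gclm*, *Trxr1*, *Roc1a*, *dj-1beta*, *GstD1* and *GstD7*. They lie right of 0 for *Gclc*, *Keap1*, *cnc*, *Cat*, *Ggt-1*, *Sod3*, *Irc*, *ref(2)P*, *Atg8a*, *GstD2*, *Cyp6a8*, *Nox* and *Duox*. The 4 tested genes with lower means are not drawn.

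Among 8489 other genes with a mean of at least 5 CPM, the profile over the 6 libraries most like that of *cnc* was that of *CG14478*, with a root mean square difference of 0.024 between centred log2 CPM values. The nearest profile was that of *Mob2* for *Keap1* (0.036), *Mal-A7* for *Gclc* (0.056), *CG8097* for *Gclm* (0.024), *ND-13B* for *Sod1* (0.024), *CG15211* for *Sod2* (0.011), *Abp1* for *Cat* (0.029) and *Dp1* for *Trxr1* (0.027). *Gclc* thus had the most distant nearest profile of the 8 genes. The distance is not scaled for the size of change, and *Gclc* also had the largest fold change of the 8. These are descriptions over 6 libraries that share their genotype contrast.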

How the data were processed

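RNA from L2 larvae was sequenced as stranded poly(A) libraries. The authors deposited raw counts of read pairs per gene for each of the 6 libraries, in the layout STAR writes, and the processing notes name STAR and BDGP6 without versions. The paper's own tables used another route (Kallisto, tximport, DESeq2). For each gene the column of its own strand was taken; counts against it came to 2.50% to 2.56%. In each file 486 identifiers that name no gene, 0.0329% to 0.0461% of assigned pairs, stayed out of library sizes and tests. Pairs that map to several places were not counted (3.97% to 4.72%), nor were ambiguous ones (2.25% to 2.35%). Places and exon lengths come from BDGP6.54, of the same assembly series as the authors' BDGP6.

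The genotype test ran in edgeR 4.0.16 (TMM scaling, quasi-likelihood with robust dispersion, Benjamini-Hochberg over 11422 genes with at least 12 counts) in R 4.3.3, and SE is the log2 fold change divided by the root of F. TMM factors were 0.973 to 1.03. Alternatives were other scalings and filters, DESeq2 1.42.0, limma-voom 3.58.1, unstranded counts, a replicate block and libraries left out. The script was tested on simulated data. The likeness of profiles used a prior count of 2. Members and lists were chosen with earlier results of these data known. All 8 members were described, and from each list up to 4 passing genes per direction were named by size. *Prx3*, the fifth peroxiredoxin that fell, and list genes named without passing were chosen after their values were seen. A direction of *Gclc*, *Gclm*, *cnc*, *Keap1*, *Cat*, *Sod1* or *Trxr1* held under every scaling. Samples are called biological replicates, but separate cultures are not stated for the RNA, and p-values then cover only the spread among these libraries, which may be technical. No libraries were duplicates (chi-square per degree of freedom of at least 3.63). The floors given for 3 counts allow for counting error alone, as reads were not collapsed to molecules.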

Additional observations from a re-analysis of the deposited data

How the results depend on the processing

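The directions of all 8 genes held under the 15 alternatives, and *Gclc*, *Keap1*, *cnc* and *Sod1* also kept their calls. With single libraries left out, log2 fold changes ran from 0.22 to 0.38 for *Cat*, from -0.31 to -0.19 for *Trxr1* and from -0.44 to -0.28 for *Gclm*, and some of these did not pass. With library totals only, *Trxr1* was at -0.19 and did not pass, so 2 of the 8 genes were lower. Without single libraries 1 to 3 were lower, each from fewer samples. By list, with single libraries left out, 0 to 1 thioredoxin and peroxiredoxin genes, 0 to 1 glutathione genes and 1 to 2 CncC-induced genes were higher. With library totals only 2 thioredoxin and peroxiredoxin genes and 1 NADPH gene were higher, under DESeq2 1 of the first list was higher and 3 lower, and 1 CncC-induced gene was higher without the count filter or without replicate 3 of both genotypes. Of 22 list genes that passed, 17 kept the call under every alternative. All 3 ratios kept their direction without any single library and with unstranded counts. A length from the longest transcript, chosen after seeing the data, gave levels per length in the mutants of 0.8001 for *Cat* over *Trxr1* (1.11 with all exons) and 0.936 for *Gclc* over *cnc* (1.19 with all exons).

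Whether replicate numbers pair the samples cannot be settled from 3 libraries per genotype, since their deviations from a shared mean depend on one another. Deviations of same-numbered samples correlated at -0.293, -0.103 and -0.306 across genes. Those of mutant replicate 1 and control replicate 3 correlated at 0.293, and those of mutant replicate 3 and control replicate 1 at 0.288. With the replicate block 4 of the 8 genes were higher and 3 lower, as without it, with 2523 genes higher and 2919 lower in all, against 2538 and 2970. *Cyp6a2* passed with the block (0.37, adjusted p = 0.0063), so 3 CncC-induced genes were higher. Medians over genes with a mean of at least 1 CPM in either genotype were chosen after seeing the data. Depth limits *TrxT*, *dhd*, *Sesn* and *DJ-1alpha*, all with means under 1 CPM in both genotypes.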
